A study of Mus musculus with 12 samples.

Results

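Epididymal GFP+ fibroblasts of Zfp423-GFP mice, 3 of the 12 samples of the study, were set against each of the other 3 groups in turn. Described here are the genes whose mean in these cells, on the log2(signal + 16) scale, lay at least 1 above all 3 other group means or at least 1 below all 3. Of 12393 genes, 56 met the rule upward and 22 downward, 78 in all. The 4 groups of 3 samples were epididymal GFP+, epididymal GFP-, inguinal GFP+ and inguinal GFP-. Every group came from male mice of 6 to 8 weeks that carried the Zfp423-GFP transgene on a background of FVB and C57BL/6, so the GFP- cells carried it as well. Stromal vascular cells of the fat, the cells left once adipocytes are removed, were cultured and sorted by GFP, and the sorted fibroblasts were grown again in DMEM/F12 with 10% fetal bovine serum and harvested while still proliferating. Labelled RNA was hybridised to Affymetrix arrays, 1 array a sample. The number of arrays limits the precision. Whether the 3 samples of a group came from different mice or dishes is not given by the labels, and the p-values then reflect only how far these samples scatter, possibly for technical reasons.

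Zfp423 is a zinc-finger transcription factor that commits fibroblasts to the fat lineage, in part by making them responsive to BMP signals, and its reporter marks fibroblasts with preadipocyte character. The epididymal depot is a visceral fat pad covered by mesothelium, while the inguinal depot lies under the skin. Cultures from either hold preadipocytes beside other fibroblasts, and a sort divides them by reporter level only. Zfp423 itself read 239, 278 and 208 in epididymal GFP+ samples, against 29.1, 25.8 and 33.4 in epididymal GFP-, 151, 112 and 110.0 in inguinal GFP+ and 47.4, 73.2 and 51.7 in inguinal GFP- samples. The epididymal GFP+ samples were the highest of the 12 and did not overlap another group. Zfp423 nevertheless stayed outside the rule, because its mean lay 0.88 ± 0.18 above inguinal GFP+ (SE, adjusted p = 0.000704, limma), less than the required 1, while it lay 2.50 above epididymal GFP- and 1.82 above inguinal GFP-. The fibroblast markers Col1a1, Col1a2, Col3a1, Pdgfra, Pdgfrb, Dcn and Vim were not weakly detected in any group; Dcn, with the lowest group mean of them, averaged 15462 in epididymal GFP+ against 16871 in epididymal GFP-, 5419 in inguinal GFP+ and 2717 in inguinal GFP-. Thy1, a fibroblast surface protein, averaged 3427 in epididymal GFP+ against 5611 in epididymal GFP-, 8129.9 in inguinal GFP+ and 7751 in inguinal GFP-, and its epididymal GFP+ mean was below all 3 others (largest adjusted p = 4.71e-09, limma).

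Over all genes, epididymal GFP+ stood apart from the other groups along the second principal component, which held 16.5% of the variance. Its 3 arrays lay between -35.3 and -31.9 there, and the 9 other arrays lay between 6.3 and 16.8. Array medians of the deposited signal were highest in the 3 epididymal GFP+ arrays, at 369.0 to 371.2, against 347.3 to 362.1 in the 9 others. The correlation over genes between 2 arrays of a group was 0.993 to 0.995. Genes of olfactory receptors, which fibroblasts do not use, had a median signal of 21.1 in epididymal GFP+, 22.8 in epididymal GFP-, 21.6 in inguinal GFP+ and 18.1 in inguinal GFP-. Genes in the lowest 30% of means, under a signal of 77.7, are called weakly detected below. Because of the added 16, a log2 difference understates the change of such a gene.

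In limma with Benjamini-Hochberg adjustment over all genes at 0.05, epididymal GFP+ was higher than epididymal GFP- for 2668 genes (21.5% of those tested) and lower for 2519 (20.3%). Against inguinal GFP+ it was higher for 3370 (27.2%) and lower for 2922 (23.6%), and against inguinal GFP- higher for 3024 (24.4%) and lower for 2786 (22.5%). In either direction these are 41.9%, 50.8% and 46.9% of genes. Which direction held more calls depended on the scaling: after median centring lower calls were the more numerous in all 3 comparisons (2290 higher and 2932 lower, 2973 and 3275, 2767 and 2976), and after quantile normalization in both inguinal ones (2629 and 2608, 2750 and 3214, 2631 and 2964). The 3 comparisons share the same epididymal GFP+ arrays and are therefore not independent. To ask whether all 3 differences held, the largest of the 3 p-values of a gene was taken and adjusted over all genes. By this test 563 genes (4.54%) were higher than all 3 groups and 531 (4.28%) lower, of which 53 and 22 also met the rule's 1. These are 53 of the 56 genes set apart upward and 22 of the 22 downward, shares from which nothing can be read since the genes were chosen by the size of the same differences. Samples did not overlap any other group in 54 of the 56 and in 22 of the 22, against 8.7% and 7.35% of all genes. The rule itself favours genes without overlap, so nothing can be read from these shares either. The genes that missed the test were Fzd5 (largest adjusted p = 0.251), Spdef (0.0634) and Sry (0.522). Adjusted p below stands for this largest p unless a comparison is named.

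The nearest of the other groups varied. For the 56 higher genes it was inguinal GFP- in 25, epididymal GFP- in 17 and inguinal GFP+ in 14, and the median least difference was 1.25. For the 22 lower genes it was epididymal GFP- in 11, inguinal GFP- in 6 and inguinal GFP+ in 5, with a median of -1.20. Only 9 of the higher and 2 of the lower genes were set apart by 2 or more. Near the threshold the upward set ended with Tph1 (1.01), Spdef (1.01) and Gm2a (1.00), and Klrg1 (0.996), B3galt2 (0.994) and Tox (0.985) lay just outside. Downward, Osr1 (-1.05), Alcam (-1.05) and Ifi47 (-1.02) were the last inside, and Cdk18 (-0.98), Gata3 (-0.95) and Zfp36l2 (-0.95) the first outside.

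**Figure D1:**
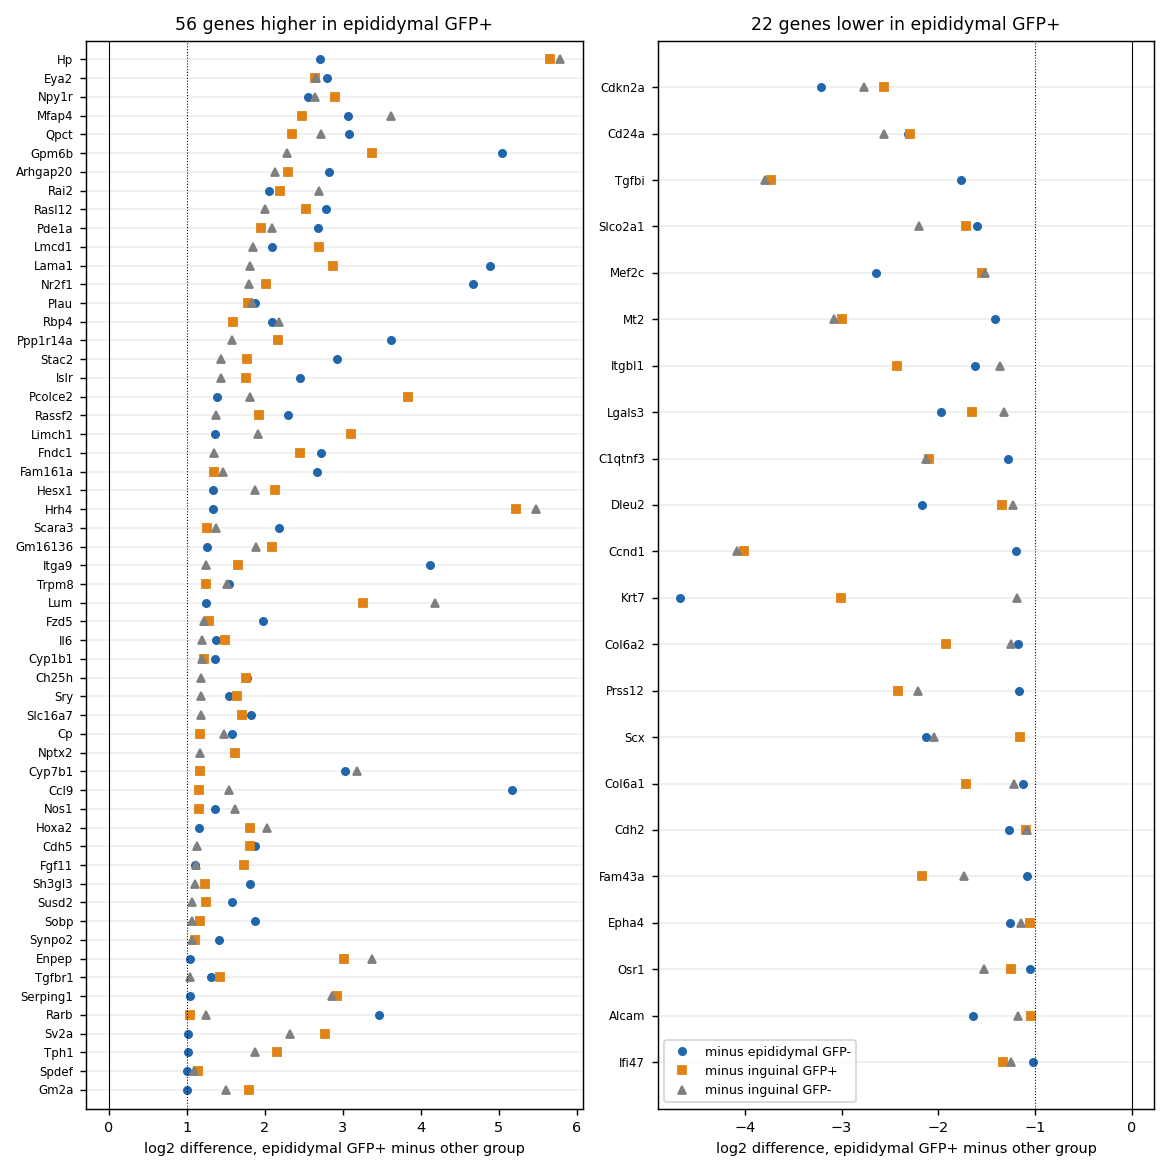
Log2 differences of the 78 genes set apart, epididymal GFP+ minus each other group (circles epididymal GFP-, squares inguinal GFP+, triangles inguinal GFP-), on the log2(signal + 16) scale; the dotted line is the rule's threshold of 1. Hp, Hrh4 and Lum lie nearer to epididymal GFP- than to the inguinal groups, while Gpm6b, Lama1, Nr2f1, Itga9, Ccl9 and Rarb differ most from epididymal GFP-.

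The upward set held genes of secreted acute phase and immune proteins, of which Hp had the largest least difference and Il6, Cp, Ccl9 and Serping1 lay below the set's median. Hp, which encodes the haemoglobin-binding plasma protein haptoglobin, read 1205, 1418 and 1302 in epididymal GFP+ samples, against 145, 222 and 198 in epididymal GFP-, 6.46, 14.2 and 10.6 in inguinal GFP+ and 1.78, 9.33 and 14.7 in inguinal GFP- samples. All epididymal GFP+ samples were above all others, epididymal GFP- was intermediate, and both inguinal groups sat at or under the level of olfactory receptor genes. The log2 differences were 2.71 ± 0.21 from epididymal GFP-, 5.66 from inguinal GFP+ and 5.78 from inguinal GFP- (adjusted p = 2.07e-07), and the inguinal ones depend on the array floor and the added 16. Il6, the gene of the cytokine interleukin 6, read 4282, 4501 and 4238 in epididymal GFP+ samples, against 1886, 1611 and 1493 in epididymal GFP-, 1527, 1551 and 1542 in inguinal GFP+ and 1851, 1922 and 1878 in inguinal GFP- samples. It was clearly detected everywhere, and the epididymal GFP+ samples exceeded the highest other sample with differences of 1.38, 1.48 and 1.20 in the order epididymal GFP-, inguinal GFP+ and inguinal GFP- (adjusted p = 2.93e-09). Ccl9, a chemokine gene, read 3496, 3867 and 3697 in epididymal GFP+ samples, against 96.1, 86.7 and 78.3 in epididymal GFP-, 1917, 1138 and 2014 in inguinal GFP+ and 1096, 1292 and 1405 in inguinal GFP- samples. Here epididymal GFP- was by far the lowest, so that the differences were 5.17, 1.16 and 1.54 in the same order.

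Serping1 encodes the C1 inhibitor, which restrains complement and contact proteases. It read 29360.4, 29296 and 28953 in epididymal GFP+ samples, against 13364, 14913 and 14417 in epididymal GFP-, 3936, 3365 and 4222 in inguinal GFP+ and 3721, 3911 and 4465 in inguinal GFP- samples. The epididymal GFP- samples were again the nearest, 1.04 ± 0.071 lower, and the inguinal groups lay 2.93 and 2.86 lower. Cp, the gene of the copper-carrying ferroxidase ceruloplasmin, was weakly detected outside epididymal GFP+, with means of 174 in epididymal GFP+ against 47.3 in epididymal GFP-, 68.6 in inguinal GFP+ and 55.3 in inguinal GFP-; 5 of its 6 further probe sets, all weakly detected, had epididymal GFP+ highest, 1 of them by at least 1, and under its median probe set Cp no longer passed (least difference 0.53, adjusted p = 0.199). In the list of 54 measured chemokine, cytokine and acute phase genes, 7 passed the test upward against all 3 groups and 2 downward, beside 4.54% and 4.28% of all genes. Besides Hp, Il6 and Ccl9 the higher ones were the decoy chemokine receptor gene Ackr3, Tnfrsf11b (osteoprotegerin), Lbp and Lcn2, and the lower ones were the monocyte chemokine gene Ccl2 (-1.54, -1.32 and -0.67) and the cytokine gene Il18 (-1.65, -0.31 and -0.34).

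The promoter of Il6 is shown because it is a textbook case of a promoter read by several inflammation-linked factors. The 250 bases before its start, from RefSeq on GRCm38.p6, are chr5:30012864-30013113 on the + strand, with capitals on the AP-1 letters TGAGTCA and the C/EBP letters TTGTGCAAT. Both strands of 32536 such windows were searched; 4.45% and 0.166% of them hold these letters. A match describes the letters only and says nothing of binding in these cells.
Il6: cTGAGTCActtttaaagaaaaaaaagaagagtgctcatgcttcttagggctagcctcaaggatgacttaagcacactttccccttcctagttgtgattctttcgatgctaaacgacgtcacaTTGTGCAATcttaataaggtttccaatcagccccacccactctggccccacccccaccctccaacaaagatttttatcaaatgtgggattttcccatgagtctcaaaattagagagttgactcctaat

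Genes of the extracellular matrix and of adhesion to it were found in both directions. Mfap4, the gene of a glycoprotein of elastic microfibrils, averaged 1766 in epididymal GFP+ against 196 in epididymal GFP-, 317 in inguinal GFP+ and 129 in inguinal GFP-. Inguinal GFP+ was nearest at 2.48 ± 0.19, and the other differences were 3.07 from epididymal GFP- and 3.62 from inguinal GFP- (adjusted p = 2.78e-07). Lama1, the gene of the laminin chain alpha 1 of basement membranes, read 1982, 1773 and 2085 in epididymal GFP+ samples, against 45.7, 49.1 and 57.2 in epididymal GFP-, 277, 211 and 274 in inguinal GFP+ and 513, 535 and 581 in inguinal GFP- samples. The groups fell into 4 separate levels with epididymal GFP+ at the top and epididymal GFP- at the bottom, and the differences were 4.88, 2.87 and 1.81. Itga9, the gene of an integrin that binds tenascin and osteopontin, read 3489, 3452 and 3441 in epididymal GFP+ samples, against 181, 175 and 198 in epididymal GFP-, 1101, 1032 and 1124 in inguinal GFP+ and 1427, 1456 and 1453 in inguinal GFP- samples. It had the same order of groups, with differences of 4.12, 1.66 and 1.25 and little spread between replicates (SE 0.053).

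Lum, the gene of the collagen-binding proteoglycan lumican, separated the depots as well. It read 2281, 2665 and 2242 in epididymal GFP+ samples, against 886, 1164 and 970.2 in epididymal GFP-, 276, 129.8 and 354 in inguinal GFP+ and 72.8, 131 and 161 in inguinal GFP- samples. Its differences of 1.24, 3.26 and 4.18 put epididymal GFP- nearest, and it missed the test at an adjusted p of 0.0661 when the variance trend was left out. Pcolce2, the gene of a procollagen processing enhancer, averaged 2296 in epididymal GFP+ against 871 in epididymal GFP-, 148 in inguinal GFP+ and 646 in inguinal GFP-. Islr averaged 2663 in epididymal GFP+ against 475 in epididymal GFP-, 786 in inguinal GFP+ and 973 in inguinal GFP-, and Fndc1 2152 in epididymal GFP+ against 314 in epididymal GFP-, 389 in inguinal GFP+ and 832 in inguinal GFP-. Islr is a surface protein of mesenchymal progenitors and Fndc1 a fibronectin-type protein, and for both the nearest group was inguinal GFP-. Plau, the gene of the plasminogen activator urokinase, averaged 3427 ± 184 in epididymal GFP+ (SD, n = 3), against 926 ± 75.7 in epididymal GFP-, 984 ± 88.0 in inguinal GFP+ and 949.8 ± 41.8 in inguinal GFP-. The 3 other groups overlapped, so the differences were nearly equal at 1.87, 1.79 and 1.83. Enpep, the gene of the aminopeptidase that trims angiotensin II, averaged 996 in epididymal GFP+ against 472 in epididymal GFP-, 110.3 in inguinal GFP+ and 80.9 in inguinal GFP-.

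In the list of 32 matrix proteases and inhibitors, 8 members passed the test upward and 1 downward, against 4.54% and 4.28% of all genes. Besides Plau, Serping1 and Pcolce2 the higher ones were Adamts4 (0.95, 0.81 and 0.94 in the order epididymal GFP-, inguinal GFP+, inguinal GFP-) and Adamts5 (0.86, 0.76 and 0.99), which cleave aggrecan and versican, as well as Adam19, Adam23 and Loxl1. The lower one was the inhibitor gene Timp2 (-0.36, -0.18 and -0.19).

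Downward, Tgfbi, the gene of a collagen-binding matrix protein named for its induction by TGF-beta, read 92.7, 113 and 92.5 in epididymal GFP+ samples, against 269, 494 and 398 in epididymal GFP-, 1575, 1161 and 1873 in inguinal GFP+ and 1409, 1642 and 1721 in inguinal GFP- samples. Its differences were -1.77, -3.73 and -3.80 (adjusted p = 5.66e-06), and its 3 further probe sets were lower in epididymal GFP+ against all 3 groups as well. Col6a1 and Col6a2, which encode chains of the same collagen VI molecule, lie next to each other in the genome with no coding gene between them. Col6a1 read 2501, 2856 and 2503 in epididymal GFP+ samples, against 5406, 6098 and 5731 in epididymal GFP-, 9019.5, 6906 and 10219 in inguinal GFP+ and 5696, 6165 and 6484 in inguinal GFP- samples. Col6a2 read 2576, 2632 and 2761 in epididymal GFP+ samples, against 5797, 6480.5 and 5785 in epididymal GFP-, 11151, 8081 and 11462 in inguinal GFP+ and 5812, 6530.1 and 6704 in inguinal GFP- samples. The epididymal GFP+ samples were below all 9 others for both, with differences of -1.13, -1.71 and -1.22 for Col6a1 and -1.17, -1.92 and -1.25 for Col6a2. Their neighbour Pcbp3 did not pass the test in any of the 3 comparisons (adjusted p = 0.619, 0.231 and 0.690). Among 24 measured collagen genes Col16a1 was the other lower member, and Col14a1, with means of 1547 in epididymal GFP+ against 80.5 in epididymal GFP-, 802 in inguinal GFP+ and 1015 in inguinal GFP-, the only higher one. That made 3 lower and 1 higher of the 24, beside 4.28% and 4.54% of all genes. The upward share was near that of all genes. Itgbl1, an integrin beta-like gene, averaged 44.0 in epididymal GFP+ against 167 in epididymal GFP-, 311 in inguinal GFP+ and 137 in inguinal GFP-, and C1qtnf3, the gene of a secreted protein of the complement C1q and TNF superfamily, 152 in epididymal GFP+ against 393 in epididymal GFP-, 709 in inguinal GFP+ and 718 in inguinal GFP-. Both had epididymal GFP+ lowest, with least differences of -1.37 and -1.29.

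Other higher genes encode receptors and proteins of intracellular signalling. Npy1r, the gene of the neuropeptide Y receptor Y1, read 745, 716 and 769.6 in epididymal GFP+ samples, against 124, 92.6 and 126 in epididymal GFP-, 74.6, 86.6 and 96.3 in inguinal GFP+ and 124, 90.0 and 104 in inguinal GFP- samples. No sample of another group came near, and the differences were 2.55, 2.90 and 2.65 (adjusted p = 7.86e-09). A further, weakly detected probe set of Npy1r showed differences of 0.14, 0.06 and 0.83 only. Hrh4, the gene of the histamine H4 receptor, read 9442, 10555 and 9049.8 in epididymal GFP+ samples, against 3561, 4247 and 3721 in epididymal GFP-, 122, 360.5 and 319 in inguinal GFP+ and 183, 167 and 267 in inguinal GFP- samples. It was high in both epididymal groups, 5.22 and 5.47 above the inguinal groups and 1.33 ± 0.26 above epididymal GFP- (adjusted p = 0.000599 for the last).

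Tgfbr1, the gene of the type I TGF-beta receptor, read 7009, 7418 and 6856 in epididymal GFP+ samples, against 2678, 3041 and 2846 in epididymal GFP-, 2643, 2648 and 2609 in inguinal GFP+ and 3467, 3403 and 3462 in inguinal GFP- samples. Its differences were 1.31, 1.42 and 1.04 (adjusted p = 1.49e-10). Under the median probe set, which was weakly detected, its least difference was 0.42 and no longer passed the test. That probe set averaged 103 in epididymal GFP+ and still had it highest, with differences of 0.42, 0.80 and 0.90. The list of 45 BMP and TGF-beta pathway genes had 6 members higher than all 3 groups and none lower (4.54% and 4.28% of all genes). The others were the coreceptor gene Eng (2.81, 0.50 and 0.29), Smad1 (0.76, 0.51 and 0.41), which carries BMP signals to the nucleus, the protease gene Bmp1 (0.78, 0.65 and 0.40), and Fst and Fstl3, which encode proteins that trap activins. The Wnt receptor gene Fzd5 met the rule by its means, 358 in epididymal GFP+ against 111 in epididymal GFP-, 151 in inguinal GFP+ and 152 in inguinal GFP-, but its epididymal GFP- samples alone ran from 18.5 to 233 and it did not pass. Wnt5a (1.37, 1.28 and 0.87) and Fzd7 (0.74, 0.48 and 0.42) were the 2 of 41 Wnt pathway genes that passed against all 3 groups, a share near the 4.54% of all genes.

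Ppp1r14a, the gene of an inhibitor of myosin phosphatase that favours smooth muscle contraction, read 1584, 1523 and 1584 in epididymal GFP+ samples, against 117, 90.8 and 135 in epididymal GFP-, 292, 389.7 and 333 in inguinal GFP+ and 529, 535 and 482 in inguinal GFP- samples. Epididymal GFP+ was highest and epididymal GFP- lowest, with differences of 3.61, 2.17 and 1.57. Rasl12, a Ras-like GTPase gene, averaged 1412 in epididymal GFP+ against 191 in epididymal GFP-, 232 in inguinal GFP+ and 340.5 in inguinal GFP-, and Pde1a, the gene of a phosphodiesterase switched on by calcium and calmodulin, 1474 in epididymal GFP+ against 218 in epididymal GFP-, 370.4 in inguinal GFP+ and 335 in inguinal GFP-. Lmcd1 and Limch1 encode LIM domain proteins, and averaged 2403 in epididymal GFP+ against 556 in epididymal GFP-, 363 in inguinal GFP+ and 655 in inguinal GFP- for Lmcd1 and 725 in epididymal GFP+ against 273 in epididymal GFP-, 72.4 in inguinal GFP+ and 181 in inguinal GFP- for Limch1. Stac2, Arhgap20, Rassf2 and Synpo2 completed the group with least differences of 1.44, 2.13, 1.38 and 1.06. Synpo2 encodes an actin-bundling protein and Rassf2 a member of a family that binds Ras.

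In the list of 46 contractile and cytoskeletal genes, 9 passed upward and 3 downward (4.54% and 4.28% of all genes), of which Synpo2 and Krt7 alone were set apart by 1. Myh11, the smooth muscle myosin gene, read 14254, 13073 and 13458 in epididymal GFP+ samples, against 8115, 7598 and 7864 in epididymal GFP-, 2566, 2817 and 2557 in inguinal GFP+ and 5328, 5313 and 5216 in inguinal GFP- samples. Its differences were 0.79, 2.35 and 1.36 from epididymal GFP-, inguinal GFP+ and inguinal GFP-. Mylk, the gene of the kinase that activates myosin light chains, averaged 28286 in epididymal GFP+ against 7902 in epididymal GFP-, 12346 in inguinal GFP+ and 16118 in inguinal GFP-, and Lmod1 4256 in epididymal GFP+ against 2171 in epididymal GFP-, 1795 in inguinal GFP+ and 2445 in inguinal GFP-. Actc1, Cnn1, Csrp1, Myl9, Synpo2 and Tpm4 were the other higher members. Acta2, the marker gene of myofibroblasts, was lower (-0.11, -0.26 and -0.24), as were Vim and Krt7, and Tagln did not pass in any comparison (-0.02, -0.02 and -0.04).

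The mural cell list, which shares Myh11, Mylk, Lmod1, Cnn1 and Acta2 among others with the contractile list, moved with these genes: the signal summed over its 19 measured members was 188537 to 191898 in epididymal GFP+, against 146484 to 148262 in epididymal GFP-, 130378 to 136471 in inguinal GFP+ and 154816 to 156257 in inguinal GFP-. Of the 19, 8 were higher and 3 lower than in epididymal GFP- (21.5% and 20.3% of all genes). Against inguinal GFP+ it was 12 and 2 (27.2% and 23.6%), and against inguinal GFP- 9 and 3 (24.4% and 22.5%). Against all 3 groups 4 passed upward and 1 downward (4.54% and 4.28%). Pdgfrb averaged 13349 in epididymal GFP+ against 4042 in epididymal GFP-, 11860 in inguinal GFP+ and 12885 in inguinal GFP-. Des averaged 11180, 13391, 1532 and 1255 in the same order. Rgs5, Abcc9, Higd1b and Kcnj8, pericyte markers of this list, were weakly detected in all groups, with epididymal GFP+ means of 36.6, 37.9, 31.0 and 59.2. The part of such cells in the contractile result was not tested. In bulk RNA fewer cells of a type and less RNA per cell cannot be told apart.

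**Figure D2:**
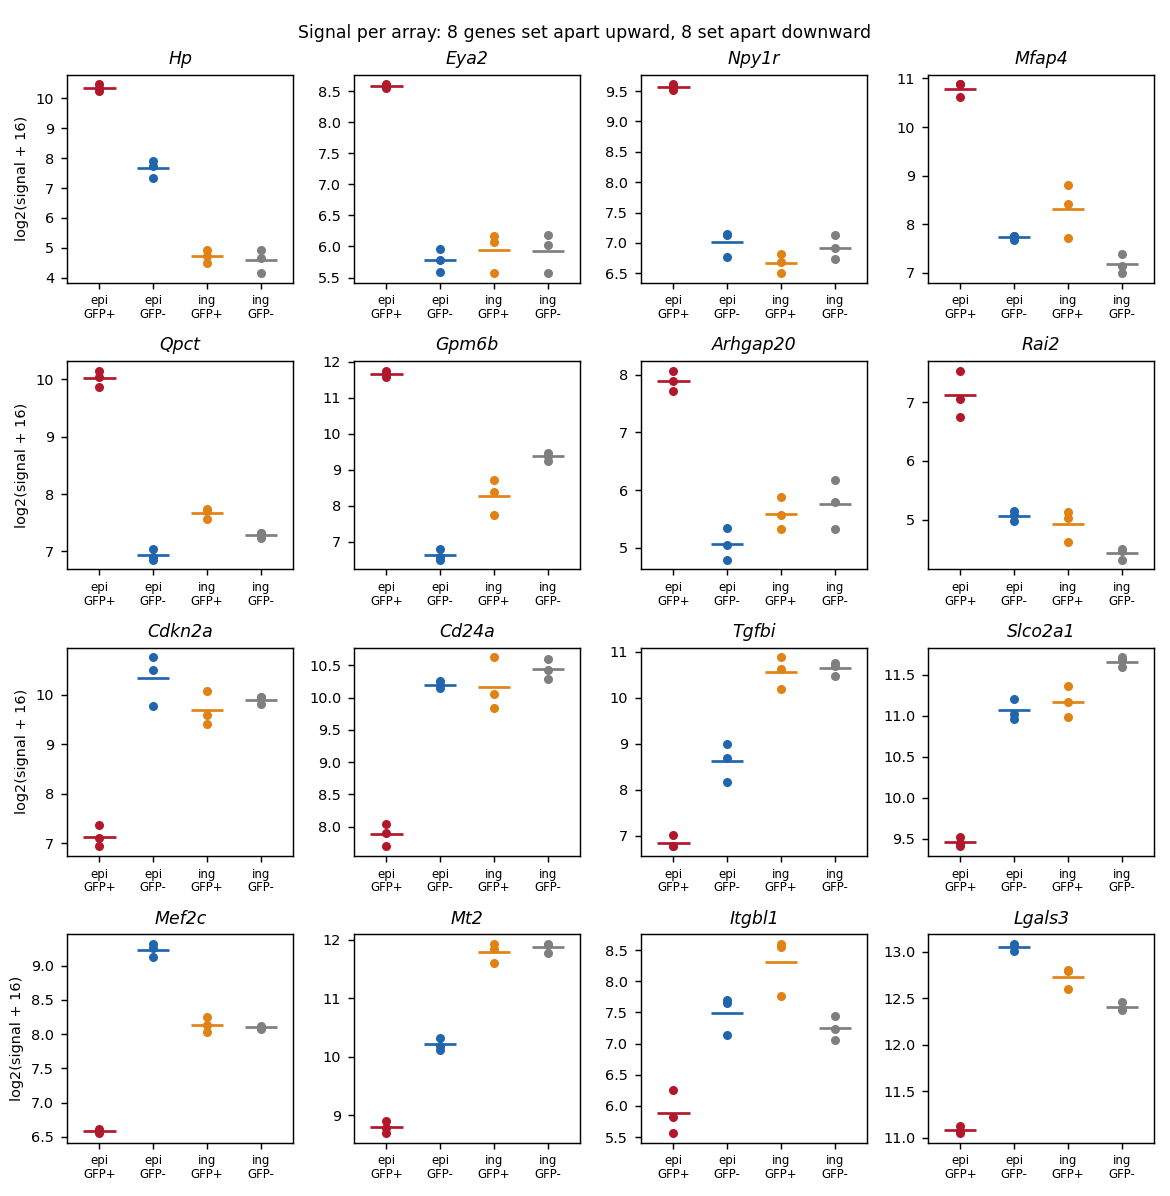
Signal of each array as log2(signal + 16) for the first 8 genes of the upward set and the first 8 of the downward set; points are arrays, bars are group means, and each panel has its own axis. In every panel the 3 epididymal GFP+ points lie on 1 side of all 9 others.

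Transcription factors and cofactors formed another part of the upward set. Eya2, the gene of a phosphatase that serves as a cofactor of homeobox proteins in development, read 377, 362 and 361 in epididymal GFP+ samples, against 32.3, 39.0 and 46.2 in epididymal GFP-, 51.6, 31.5 and 55.6 in inguinal GFP+ and 49.0, 56.9 and 31.7 in inguinal GFP- samples. The 3 other groups overlapped each other under the weak level of 77.7, and the differences were 2.80, 2.64 and 2.65 (adjusted p = 1.81e-07). Nr2f1, the gene of the orphan nuclear receptor COUP-TFI, read 4221, 4001 and 4087 in epididymal GFP+ samples, against 142, 139 and 157 in epididymal GFP-, 1067, 925 and 1007 in inguinal GFP+ and 1184, 1186 and 1128 in inguinal GFP- samples. It was set apart most clearly from epididymal GFP- with differences of 4.67, 2.02 and 1.80. Hoxa2, a homeobox gene of the anterior end of its cluster, read 293, 303 and 395 in epididymal GFP+ samples, against 125, 145 and 147 in epididymal GFP-, 82.9, 82.8 and 79.7 in inguinal GFP+ and 78.8, 63.5 and 63.3 in inguinal GFP- samples. Its differences were 1.15, 1.81 and 2.03, so epididymal GFP- was nearest. Hesx1, a homeobox repressor gene of the forebrain and pituitary, averaged 186 in epididymal GFP+ against 64.6 in epididymal GFP-, 29.9 in inguinal GFP+ and 39.7 in inguinal GFP-, and Rai2, named for its induction by retinoic acid, 127 in epididymal GFP+ against 17.4 in epididymal GFP-, 14.7 in inguinal GFP+ and 5.51 in inguinal GFP-. In both, the other groups were at or under the weak level.

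Of 31 measured Hox genes, which encode positional identity along the body axis, 12 were weakly detected, 8 were higher than all 3 groups and 3 lower (4.54% and 4.28% of all genes). The higher ones were Hoxa2, Hoxa3, Hoxa5, Hoxa7, Hoxb2, Hoxb4, Hoxc5 and Hoxc8, and the lower ones were Hoxa9, Hoxa10 and Hoxc13. Hoxa5 averaged 4461 in epididymal GFP+ against 2701 in epididymal GFP-, 397 in inguinal GFP+ and 357 in inguinal GFP-, with differences of 0.72, 3.44 and 3.59, and Hoxa10 averaged 64.5 in epididymal GFP+ against 98.3 in epididymal GFP-, 910.0 in inguinal GFP+ and 1154 in inguinal GFP-, with differences of -0.50, -3.52 and -3.87. Both therefore separated the depots far more than they separated GFP+ from GFP- within the epididymal depot. Hoxb2 averaged 3097 in epididymal GFP+ against 935 in epididymal GFP-, 1970.1 in inguinal GFP+ and 2109 in inguinal GFP- and had epididymal GFP- as the group farthest away (1.71).

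Mef2c, Scx and Osr1 were lower than in all other groups. Mef2c, a MADS-box factor gene of muscle and vessel development, read 82.4, 78.1 and 79.4 in epididymal GFP+ samples, against 541, 622 and 598 in epididymal GFP-, 289, 265 and 245 in inguinal GFP+ and 262, 255 and 257 in inguinal GFP- samples. Its epididymal GFP+ mean was just above the weak level, with differences of -2.65, -1.55 and -1.51 (adjusted p = 3.47e-08). The 4 further probe sets of Mef2c were lower against all 3 groups too, but unequally. From inguinal GFP+ and inguinal GFP- they differed by -1.44 and -1.41, -2.04 and -1.87, -0.21 and -0.26, and -0.38 and -0.14. Scx, the gene of the tendon factor scleraxis, averaged 31.0 in epididymal GFP+ against 186 in epididymal GFP-, 88.2 in inguinal GFP+ and 175 in inguinal GFP-, and Osr1, a zinc-finger factor gene of connective tissue progenitors, 719 in epididymal GFP+ against 1523 in epididymal GFP-, 1737 in inguinal GFP+ and 2106 in inguinal GFP-. Sry and Spdef met the upward rule by their means but overlapped another group. Sry read 166, 279 and 181 in epididymal GFP+, against 79.8, 121 and 16.4 in epididymal GFP-, 87.3, 76.6 and 20.1 in inguinal GFP+ and 122, 11.4 and 224 in inguinal GFP- samples, a wide spread in every group. Under its median probe set its least difference was -0.33.

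Rarb, the gene of retinoic acid receptor beta, which retinoic acid itself induces through an element in its promoter, read 927, 1011 and 977 in epididymal GFP+ samples, against 62.8, 79.0 and 78.9 in epididymal GFP-, 487, 506 and 408 in inguinal GFP+ and 407, 399.8 and 390.3 in inguinal GFP- samples. Epididymal GFP- was near the weak level, and the differences were 3.47, 1.04 and 1.25 (adjusted p = 2.65e-06). Rbp4, the gene of the protein that carries retinol in plasma, read 528, 543 and 530.2 in epididymal GFP+ samples, against 108, 113 and 116 in epididymal GFP-, 166, 142 and 196 in inguinal GFP+ and 93.0, 108 and 114 in inguinal GFP- samples. Inguinal GFP+ was nearest (1.59) and inguinal GFP- farthest (2.19). Of 23 measured retinoid genes 4 were higher than all 3 groups and none lower (4.54% and 4.28% of all genes); the others were Dhrs3 (1.98, 0.87 and 0.50), which turns retinaldehyde back to retinol, and the retinoic acid target Tgm2 (0.51, 1.36 and 0.98). The enzymes that make retinoic acid did not follow 1 pattern. Aldh1a1 averaged 3399.7 in epididymal GFP+ against 19675 in epididymal GFP-, 1519 in inguinal GFP+ and 471 in inguinal GFP-, Aldh1a2 7466 in epididymal GFP+ against 10198 in epididymal GFP-, 12822 in inguinal GFP+ and 4267 in inguinal GFP-, and Aldh1a3 1799 in epididymal GFP+ against 778 in epididymal GFP-, 203 in inguinal GFP+ and 1629.5 in inguinal GFP-. Cyp26a1, which degrades retinoic acid and is another of its targets, averaged 87.8 in epididymal GFP+ against 581 in epididymal GFP-, 33.1 in inguinal GFP+ and 39.7 in inguinal GFP-, highest in epididymal GFP- cells.

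The Rarb promoter is shown for that element. The 250 bases before the start of Rarb, from RefSeq on GRCm38.p6, are chr14:16575477-16575726 read on the - strand, with capitals on a direct repeat, 2 copies of the letters GTTCA with any 6 bases between them, from 52 to 37 bases before the start. On both strands 22 of 32536 windows of this length (0.0676%) hold these letters, and among the 55 genes set apart that have a window Rarb alone does. The letters searched are those of the Rarb element itself, so its match was fixed in advance. Other forms of retinoic acid response element were not searched for, so nothing can be read from these counts about the other genes. A match describes the letters only.
Rarb: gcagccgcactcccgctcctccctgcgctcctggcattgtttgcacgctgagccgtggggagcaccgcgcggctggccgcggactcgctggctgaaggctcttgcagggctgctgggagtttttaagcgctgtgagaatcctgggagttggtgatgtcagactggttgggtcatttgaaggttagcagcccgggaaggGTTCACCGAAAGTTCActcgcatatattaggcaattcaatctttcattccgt

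Genes of oxysterol and steroid metabolism were set apart upward. Ch25h, whose enzyme makes 25-hydroxycholesterol, read 2640.1, 2872 and 2959.5 in epididymal GFP+ samples, against 759, 896 and 798 in epididymal GFP-, 765, 1098 and 655 in inguinal GFP+ and 1274, 1156 and 1258 in inguinal GFP- samples. The epididymal GFP+ samples were above all others with differences of 1.77, 1.76 and 1.19 (adjusted p = 8.58e-06). Cyp7b1, whose enzyme inactivates such oxysterols, read 4108, 4934 and 4501 in epididymal GFP+ samples, against 516, 577 and 527 in epididymal GFP-, 2252, 1301 and 2729 in inguinal GFP+ and 449, 454 and 548 in inguinal GFP- samples. Inguinal GFP+ was intermediate and both GFP- groups were low, with differences of 3.02, 1.16 and 3.18. Cyp1b1, the gene of a monooxygenase of oestradiol, retinoids and xenobiotics, read 15705, 15955 and 15278 in epididymal GFP+ samples, against 6482, 5843 and 5886 in epididymal GFP-, 6761, 6281 and 7069 in inguinal GFP+ and 6952, 6893 and 6707 in inguinal GFP- samples. The differences were 1.37, 1.22 and 1.19 with an SE of 0.043. Hsd11b1, whose enzyme regenerates active glucocorticoid, passed as well with differences of 2.61, 0.84 and 1.04, and Cyp7b1, Cyp1b1 and Hsd11b1 were all that passed of 21 steroid genes (4.54% of all genes passed upward).

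Sterol synthesis genes, listed together with fatty acid synthesis genes, lay mostly in the opposite direction. Of 21 measured, 11 were lower in epididymal GFP+ than in all 3 groups and none was higher, against 4.28% and 4.54% of all genes. None reached the rule's 1 against epididymal GFP-. Idi1, whose enzyme isomerises isopentenyl diphosphate, read 1095, 1046 and 1061 in epididymal GFP+ samples, against 1457, 1522 and 1523 in epididymal GFP-, 3038, 2970.2 and 3049 in inguinal GFP+ and 2141, 2064 and 2029.8 in inguinal GFP- samples. The samples fell into 4 separate levels, lowest in epididymal GFP+ and highest in inguinal GFP+, with differences of -0.48, -1.49 and -0.95. Sqle, the gene of squalene epoxidase, averaged 1713 in epididymal GFP+ against 2479 in epididymal GFP-, 4539 in inguinal GFP+ and 3121 in inguinal GFP-, and Msmo1, the gene of a sterol methyl oxidase, 2429 in epididymal GFP+ against 4002 in epididymal GFP-, 5669.7 in inguinal GFP+ and 4286 in inguinal GFP-. The same order of groups held for both. Stard4 (-0.80, -1.19 and -0.94), a cholesterol carrier gene, and Dhcr7 (-0.65, -1.29 and -1.02), which completes cholesterol synthesis, were lower as well. The others were Cyp51, Elovl6, Fdft1, Fdps, Hmgcs1 and the regulator Srebf2 (-0.32, -0.82 and -0.65). Counted by comparison, 12 were lower and 2 higher than in epididymal GFP- (20.3% and 21.5% of all genes), 18 and 1 against inguinal GFP+ (23.6% and 27.2%), and 17 and 3 against inguinal GFP- (22.5% and 24.4%). The list's median differences were -0.22 from epididymal GFP- and -0.65 from inguinal GFP-, beside 0.01 and 0.04 for all genes. Elovl6 was the only fatty acid gene among the 11. Acly (-0.02, -0.38 and -0.08), Elovl5 (-0.07, 0.01 and 0.26) and Fads1 (0.34, -0.22 and -0.08) did not pass against all 3 groups. Neither did Fads2 (0.15, -0.43 and -0.25), Me1 (0.40, 0.10 and 0.12) or the sterol genes Lss, Mvd, Mvk, Nsdhl and Sc5d. Of these sterol genes, Mvd had its highest mean in epididymal GFP+ (0.34, 0.20 and 0.48). Lss (0.02, -0.92 and -0.36), Mvk (0.23, -0.82 and -0.57) and Sc5d (-0.22, -0.32 and 0.05) had mixed directions. Nsdhl was lower by means throughout (-0.06, -1.20 and -0.72). Fasn, counted with the adipocyte lipid genes, was lower than all 3 groups.

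**Figure D3:**
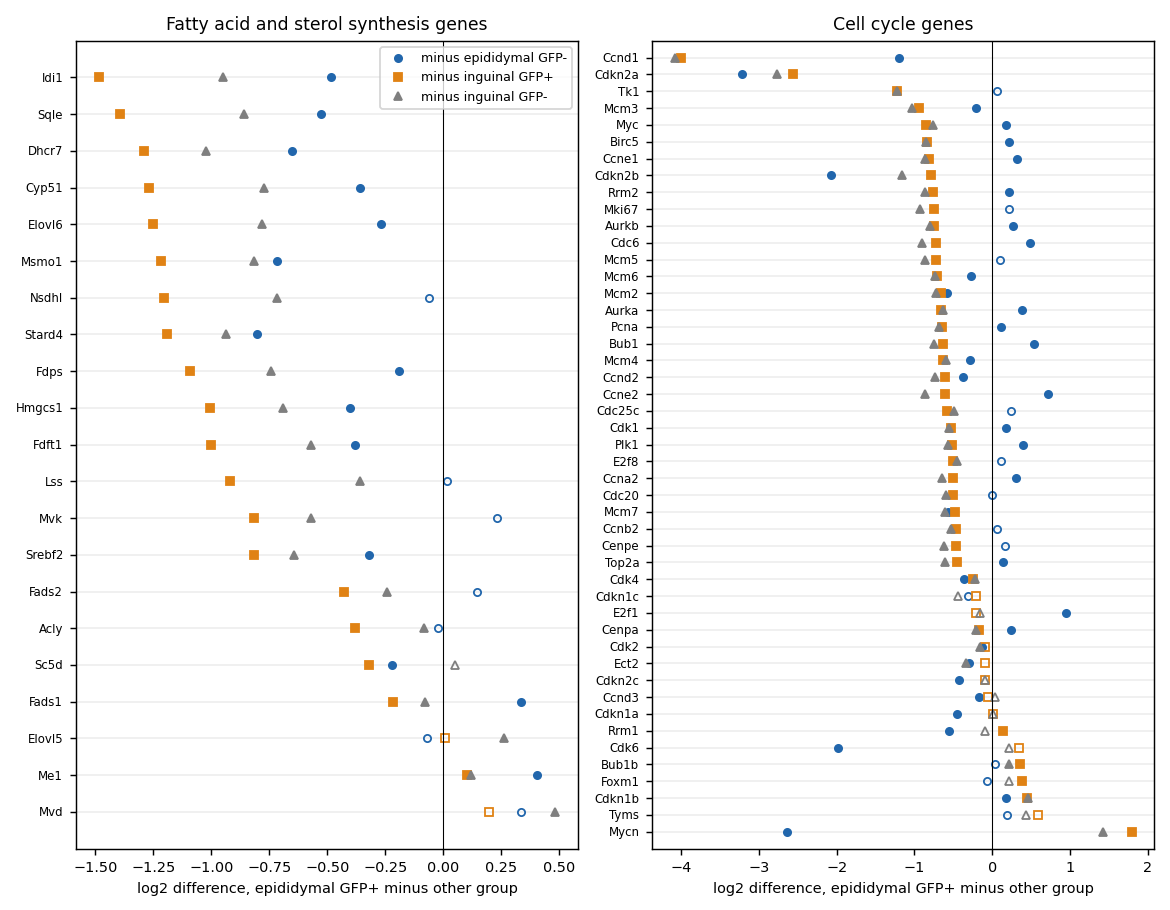
Log2 differences, epididymal GFP+ minus each other group, for 21 fatty acid and sterol synthesis genes (left) and 47 cell cycle genes (right); symbols as named in the legend, filled where the adjusted p of that comparison is under 0.05. In the left panel 18 squares and 17 triangles are filled and below 0, and in the right panel the inguinal comparisons of most genes lie below 0 while those with epididymal GFP- lie on both sides.

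The downward set was led by Cdkn2a, a cell cycle gene. Cdkn2a, which encodes the cell cycle inhibitors p16 and Arf, read 148, 106 and 120.5 in epididymal GFP+ samples, against 1710.4, 859 and 1434 in epididymal GFP-, 756, 665 and 1054 in inguinal GFP+ and 876, 971 and 968 in inguinal GFP- samples. The highest epididymal GFP+ sample was far below the lowest of the others, and the differences were -3.22, -2.56 and -2.77 (adjusted p = 2.78e-07). Its neighbour Cdkn2b, the gene of the inhibitor p15, read 1417, 1409 and 1505 in epididymal GFP+ samples, against 6589.5, 5417 and 6494 in epididymal GFP-, 2535, 2485 and 2476 in inguinal GFP+ and 3140.4, 3289 and 3264 in inguinal GFP- samples. It was lowest in epididymal GFP+ too, with differences of -2.08, -0.79 and -1.15, and so was Mtap, on the other side (-0.57, -0.52 and -0.50). Ccnd1, the gene of cyclin D1, which drives entry into the cycle, read 349, 328 and 356 in epididymal GFP+ samples, against 938, 670.0 and 854 in epididymal GFP-, 5037, 7495 and 5088 in inguinal GFP+ and 6448, 6043 and 5775 in inguinal GFP- samples. Both epididymal groups were far below both inguinal ones, so the differences were -1.20 from epididymal GFP- and -4.01 and -4.08 from the inguinal groups. Further probe sets of Ccnd1, not weakly detected, lay -0.99 and -0.93 from epididymal GFP-, just short of the rule. Dleu2, a non-coding RNA gene that hosts microRNAs acting on cyclins, was weakly detected in epididymal GFP+ at 18.4, 29.1 and 31.3, against 176, 214 and 136 in epididymal GFP-, 95.0, 78.1 and 98.3 in inguinal GFP+ and 81.3, 74.4 and 90.4 in inguinal GFP- samples. Under its median probe set Dleu2 no longer passed (least difference -0.47).

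Of 47 measured cell cycle genes 9 were lower than all 3 groups (4.28% of all genes), among them Ccnd2, Cdk4 and the replication helicase genes Mcm2, Mcm4, Mcm6 and Mcm7, and 1 was higher, the inhibitor gene Cdkn1b (0.17, 0.45 and 0.46). Against inguinal GFP+ 33 were lower and 5 higher (23.6% and 27.2% of all genes), and against inguinal GFP- 35 and 3 (22.5% and 24.4%). Against epididymal GFP- the list was divided, with 18 lower and 17 higher (20.3% and 21.5%). Mki67, a proliferation marker, averaged 1510.4 in epididymal GFP+ against 1299 in epididymal GFP-, 2558 in inguinal GFP+ and 2881 in inguinal GFP-, with a difference of 0.22 from epididymal GFP- that did not pass (adjusted p = 0.0571) and of -0.74 and -0.93 from the inguinal groups. The median differences of the list were 0.07, -0.52 and -0.60.

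Surface proteins and a set of other genes made up the rest of the downward set. Cd24a, the gene of a small surface glycoprotein used to mark early fat progenitors, read 223, 191 and 249 in epididymal GFP+ samples, against 1208, 1160.5 and 1115 in epididymal GFP-, 1045, 1565 and 899.9 in inguinal GFP+ and 1538, 1368 and 1242 in inguinal GFP- samples. The epididymal GFP+ samples were far below all others, with differences of -2.32, -2.29 and -2.56 (adjusted p = 3.46e-08). Slco2a1, the gene of a prostaglandin transporter, read 722, 663 and 685 in epididymal GFP+ samples, against 1981, 2342 and 2066 in epididymal GFP-, 2279, 2618 and 2018 in inguinal GFP+ and 3337, 3253 and 3075 in inguinal GFP- samples. Its differences were -1.60, -1.71 and -2.20. Lgals3, the gene of galectin 3, read 2108, 2140.2 and 2216 in epididymal GFP+ samples, against 8217, 8571 and 8669 in epididymal GFP-, 7087, 6205 and 7128 in inguinal GFP+ and 5305, 5639 and 5316 in inguinal GFP- samples. Epididymal GFP- was highest there, and the differences were -1.97, -1.65 and -1.32 with an SE of 0.046. Cdh2 (N-cadherin) averaged 1882 in epididymal GFP+ against 4546 in epididymal GFP-, 4038 in inguinal GFP+ and 4016 in inguinal GFP-, Alcam, an adhesion molecule gene, 469 in epididymal GFP+ against 1516 in epididymal GFP-, 988 in inguinal GFP+ and 1078 in inguinal GFP-, and Epha4, an ephrin receptor gene, 207 in epididymal GFP+ against 515 in epididymal GFP-, 448 in inguinal GFP+ and 475 in inguinal GFP-. For these 3 the least difference lay between -1.09 and -1.05. A further probe set of each, not weakly detected, was lower against all 3 groups but fell short of 1. The least differences there were -0.85 (Cdh2), -0.89 (Alcam) and -0.59 (Epha4). Mt2, the gene of a metal-binding metallothionein, read 398, 462 and 424 in epididymal GFP+ samples, against 1149, 1268 and 1095 in epididymal GFP-, 3676, 3087 and 3871 in inguinal GFP+ and 3492, 3884 and 3838 in inguinal GFP- samples. It followed the depots and, within the epididymal depot, GFP as well, with a least difference of -1.42. Prss12, a secreted protease gene, Fam43a and the interferon-induced GTPase gene Ifi47 had least differences of -1.17, -1.08 and -1.02.

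The remaining higher genes included several known from nerve cells. Gpm6b, the gene of a proteolipid of neurons and glia, read 3200.4, 3422 and 3001 in epididymal GFP+ samples, against 74.1, 95.4 and 78.3 in epididymal GFP-, 315, 198 and 403 in inguinal GFP+ and 591, 655 and 693 in inguinal GFP- samples. It had 4 separate levels with epididymal GFP- lowest, and differences of 5.04, 3.38 and 2.28, which its other probe set matched at 5.11, 3.18 and 2.10. Qpct, whose enzyme caps peptides with pyroglutamate, read 918, 1119 and 1030.4 in epididymal GFP+ samples, against 99.7, 104 and 116 in epididymal GFP-, 173, 192 and 197 in inguinal GFP+ and 144, 135 and 144 in inguinal GFP- samples. Its differences were 3.08, 2.35 and 2.73 (adjusted p = 5.87e-10). Nptx2, a pentraxin gene of synapses, averaged 1235 in epididymal GFP+ against 396 in epididymal GFP-, 393 in inguinal GFP+ and 544 in inguinal GFP-, Sv2a, a synaptic vesicle protein gene, 917 in epididymal GFP+ against 445 in epididymal GFP-, 120.0 in inguinal GFP+ and 171 in inguinal GFP-, and Sh3gl3, an endophilin gene, 1147 in epididymal GFP+ against 317 in epididymal GFP-, 484 in inguinal GFP+ and 527 in inguinal GFP-. Sv2a, Gm2a and Tph1 were nearest to epididymal GFP-. The lysosomal cofactor gene Gm2a averaged 7426 in epididymal GFP+ against 3702 in epididymal GFP-, 2119.6 in inguinal GFP+ and 2601 in inguinal GFP-, the scavenger receptor gene Scara3 1716 in epididymal GFP+ against 365 in epididymal GFP-, 704 in inguinal GFP+ and 653 in inguinal GFP-, and the ciliary gene Fam161a 1166 in epididymal GFP+ against 172 in epididymal GFP-, 448 in inguinal GFP+ and 413 in inguinal GFP-.

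Several of the rest were dim. Slc16a7 (a monocarboxylate transporter), Susd2, Sobp, Fgf11 and Gm16136 had epididymal GFP+ means of 215, 788, 94.9, 114 and 181, and except for Susd2 the other groups averaged near or under the weak level. Trpm8, the menthol and cold channel gene, Nos1 (neuronal nitric oxide synthase) and Spdef were weakly detected even in epididymal GFP+, at 58.7, 56.2 and 46.2. Trpm8 lost its call without epididymal GFP+ replicate 3 (least difference 0.93, adjusted p = 0.0608). Tph1, the gene of the first enzyme of serotonin synthesis outside the brain, averaged 123 in epididymal GFP+ against 53.6 in epididymal GFP-, 16.2 in inguinal GFP+ and 23.6 in inguinal GFP-, and it lost its call without any 1 of the 3 epididymal GFP+ arrays (adjusted p from 0.0758 to 0.0982), as it did without epididymal GFP- replicate 2 or 3 (0.123 and 0.0628). Spdef passed without epididymal GFP+ replicate 3 (adjusted p = 0.0287) and without replicate 3 of inguinal GFP+ (0.0461) or of inguinal GFP- (0.0482). Nos1 and Sobp lost theirs with single arrays left out as well, at adjusted p up to 0.0818 and 0.0954. For Fgf11 and for Cdh5, the gene of vascular endothelial cadherin, a further weakly detected probe set did not show the pattern (differences of -0.77, -0.79 and -0.08 for Fgf11, and of -0.03, 0.02 and 0.03 for Cdh5).

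Whether the epididymal difference between GFP+ and GFP- cells was shared by the inguinal depot was asked of the 78 genes with the inguinal comparison, which the rule did not use as such, though both inguinal groups entered it. Of the 56 higher genes, 5 were also higher in inguinal GFP+ than in inguinal GFP-, 17 were lower there, and 34 did not pass (1556 of all genes passed, 12.6%). The 5 were Mfap4 (1.14), Qpct (0.38), Rbp4 (0.60), Lum (0.92) and Cyp7b1 (2.02). Of the 22 lower genes, 2 were also lower in inguinal GFP+ cells, Slco2a1 (-0.49) and Scx (-0.88), 5 were higher, and 15 did not pass. So 22 of the 78 ran opposite ways in the depots, each with a called interaction. Over all genes 504 did (4.07%). The interaction was called for 52 of the 56 and for 22 of the 22 (34.8% of all genes). Nothing is read from these shares, since the rule chose the genes for a large epididymal difference, which is part of both counts.

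Krt7, Gpm6b and Lama1 had the largest interactions in size. For Gpm6b and Lama1, in inguinal cells the GFP+ minus GFP- difference was -1.10 (adjusted p = 0.000329) and -1.06 (5.89e-06), while the epididymal differences were 5.04 and 4.88. Pcolce2 stood out for its inguinal difference of -2.02 (adjusted p = 2.74e-09), with 2333, 2262 and 2294 in epididymal GFP+ and 925, 811 and 879 in epididymal GFP-, but 139.6, 176 and 127 in inguinal GFP+ and 695, 694 and 549 in inguinal GFP- samples. Downward, Krt7, a keratin gene of simple epithelia and mesothelium, read 52.9, 52.7 and 62.6 in epididymal GFP+ samples, against 1534, 2169.9 and 1787 in epididymal GFP-, 593, 574 and 525 in inguinal GFP+ and 144, 146 and 155 in inguinal GFP- samples. It was lowest in epididymal GFP+ and highest in epididymal GFP-, with an inguinal difference of 1.82 in the other direction. Col6a1 (0.49), Col6a2 (0.67), Itgbl1 (1.06) and Lgals3 (0.33) were likewise higher in inguinal GFP+ than in inguinal GFP- cells.

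**Figure D4:**
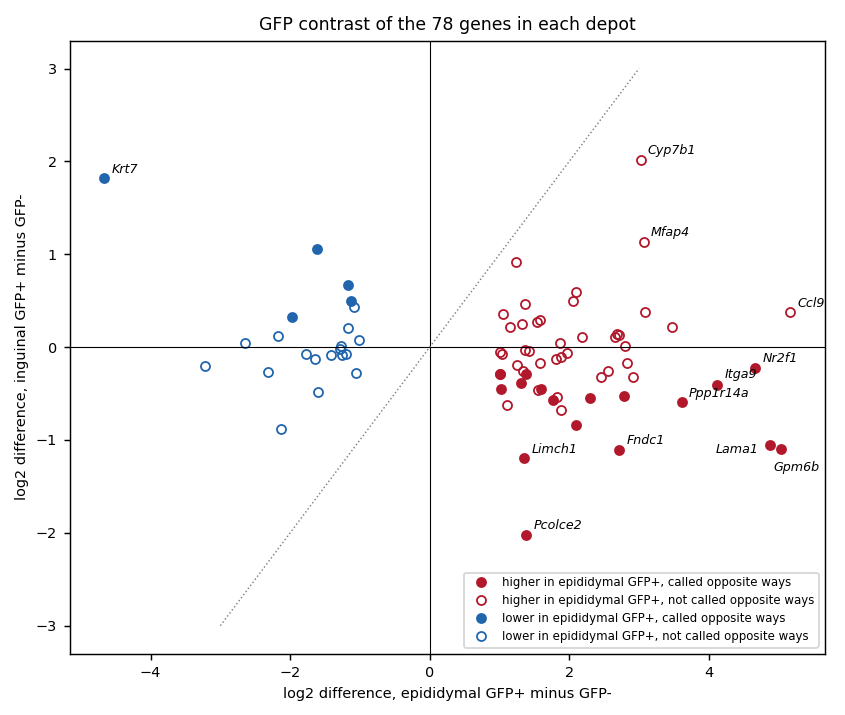
GFP contrast of the 78 genes in the epididymal depot (x axis) against that in the inguinal depot (y axis), both as log2 GFP+ minus GFP-; filled points were called opposite ways in the depots, and the dotted line marks equal contrasts. Gpm6b, Lama1, Nr2f1 and Itga9 lie far to the right and below 0, and Krt7 far to the left and above 0.

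Markers of other cell types differed between the groups and are given beside these results. Summed over 15 mesothelial markers, the signal was 10224 to 10652 in epididymal GFP+, against 51357 to 54325 in epididymal GFP-, 2460 to 2787 in inguinal GFP+ and 2441 to 2580 in inguinal GFP- samples. Of these markers 13 were lower than in epididymal GFP- and none higher (20.3% and 21.5% of all genes), and 12 and 11 were higher than in inguinal GFP+ and GFP- (27.2% and 24.4%) with 2 lower in each. Upk3b averaged 599.6 in epididymal GFP+ against 9459 in epididymal GFP-, 10.5 in inguinal GFP+ and 12.5 in inguinal GFP-, and Msln 181 in epididymal GFP+ against 2331 in epididymal GFP-, 37.2 in inguinal GFP+ and 47.3 in inguinal GFP-. Krt7 was the only mesothelial marker set apart, and the part of such cells in the genes nearest to or farthest from epididymal GFP- was not tested. Macrophage and leukocyte markers summed to 4054 to 4480 in epididymal GFP+, against 5400 to 6019 in epididymal GFP-, 2877 to 3295 in inguinal GFP+ and 19290 to 23126 in inguinal GFP-. Of 23, 2 were higher and 10 lower than in epididymal GFP- (21.5% and 20.3% of all genes), 9 higher and none lower than in inguinal GFP+ (27.2% and 23.6%), and 1 higher and 18 lower than in inguinal GFP- (24.4% and 22.5%). Ptprc, the pan-leukocyte marker, averaged 16.8 in epididymal GFP+ against 26.3 in epididymal GFP-, 9.31 in inguinal GFP+ and 251 in inguinal GFP-. Adgre1, a macrophage marker, averaged 542 in epididymal GFP+ against 474 in epididymal GFP-, 273 in inguinal GFP+ and 347 in inguinal GFP-, higher in epididymal GFP+ than in both inguinal groups (adjusted p = 6.68e-05 and 0.00336). No marker of this list was set apart, and the part of such cells in the results was not tested.

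Of 19 endothelial markers 14 were weakly detected, and their summed signal was 3271 to 3415 in epididymal GFP+, against 6284 to 6587 in epididymal GFP-, 2360 to 2495 in inguinal GFP+ and 2314 to 2514 in inguinal GFP-. Kdr, a VEGF receptor gene, averaged 552 in epididymal GFP+ against 4469 in epididymal GFP-, 257 in inguinal GFP+ and 135 in inguinal GFP-, with differences of -2.98, 1.09 and 1.92 that all passed. Its gap to epididymal GFP- was larger than that of the summed signal, so the lower sum rested on Kdr. Of the 19 markers, 4 were higher and 2 lower than in epididymal GFP- (21.5% and 20.3% of all genes), with a median difference of 0.13. Against inguinal GFP+ it was 6 and 2 (27.2% and 23.6%), and against inguinal GFP- 7 and none (24.4% and 22.5%). Cdh5 was set apart, and Emcn and Eng passed the test by less. These were the 3 of 19 higher than all 3 groups, and none was lower (4.54% and 4.28% of all genes). Pecam1 averaged 22.5 in epididymal GFP+ against 17.5 in epididymal GFP-, 19.1 in inguinal GFP+ and 11.5 in inguinal GFP-, and like Vwf, Tie1 and Erg it passed in no comparison. The part of endothelial cells in the results was not tested. Mature adipocyte, epithelial and epididymal epithelium markers were weakly detected in 9 of 11, 12 of 14 and 6 of 7 cases, and none was set apart. Among 20 genes of RNA quality and stress, 3 were lower in epididymal GFP+ than in all 3 groups (Chac1, Hsph1 and Ier3) and none higher (4.28% and 4.54% of all genes). Against epididymal GFP- 11 were lower and 5 higher (20.3% and 21.5%). Against inguinal GFP+ 11 were lower and 7 higher (23.6% and 27.2%), and against inguinal GFP- 10 and 7 (22.5% and 24.4%). The part of stress or RNA quality in the results was not tested.

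Further probe sets of the genes were compared with those chosen. For 26 of the 78 genes 42 further probe sets existed. All 25 that were not weakly detected, for 17 genes, had epididymal GFP+ on the same side of all 3 groups, 15 of them by at least 1. Of the 17 weakly detected ones 13 did, 1 by at least 1.

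Over the 12 samples the genes most like Zfp423 were not members of the set. The highest Pearson correlations were those of Mrgprf (0.989), Adam23 (0.984), Fap (0.983), Errfi1 (0.981), Gstt2 (0.980), Notch4 (0.977), Inpp5a (0.972), Rgl1 (0.970), Tnfrsf11b (0.965) and Adh1 (0.960), a description over samples that share 4 group levels. None of the 10 met the rule, as Zfp423 did not.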

How the data were processed

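The authors deposited 1 linear intensity per probe set and array. How signals were summarised, background-corrected and scaled is not given in the sources used here. Of 22626 probe sets, 20380 had 1 gene symbol, 691 several and 1555 none; only the first kind was used. The probe set with the highest mean of log2(intensity + 16) stood for its gene, leaving 12393 genes and no further normalization. Groups came from the labels. limma 3.58.1 in R 4.3.3 (lmFit, eBayes with trend) was fitted over all 12 arrays with 4 group means, with Benjamini-Hochberg adjustment over all genes at 0.05, and checked on simulated data. The largest of the 3 p-values of a gene, set to 1 where directions were mixed, was adjusted likewise. Replicate numbers showed no sign of pairing: deviations of same-numbered samples correlated between -0.129 and 0.117, above 0.1 in 3 of 18 pairs. Those of differently numbered samples ran from -0.159 to 0.143. Whether samples were paired by origin is not given by the labels.

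Genes were named by rule: Zfp423, the 16 leading, not weakly detected and non-overlapping genes per direction, up to 4 set-apart members per list and direction (or the leading member), set-apart markers, 3 genes on each side of the threshold, up to 6 opposite-way genes per direction, and the 10 genes most like Zfp423. Other set-apart genes and list members that passed were added after their values were seen. The genes and the 37 lists (1153 genes, 1019 measured) were chosen with earlier results of these data known. Alternatives were the replicate block, 2 normalizations, pseudocounts of 1 and 64, weak genes left out, fits of only the groups compared, no trend, array weights, other probe sets, other thresholds and each array left out. Promoters and motifs came from RefSeq tables on GRCm38.p6; no coordinates of probe sets were used.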

Additional observations from a re-analysis of the deposited data

Results flagged for a closer look

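For 22 of the 78 genes set apart in epididymal GFP+ cells, the difference between GFP+ and GFP- cells ran one way in the epididymal depot and the other way in the inguinal depot, and limma's interaction term passed after adjustment over all genes. The values below are that interaction, the epididymal log2 difference minus the inguinal one. The genes were chosen for their large epididymal difference, which favours a large interaction.

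Among genes higher in epididymal GFP+ and lower in inguinal GFP+ cells than in their GFP- partners, matrix and adhesion genes had interactions of 5.94 (Lama1), 4.53 (Itga9), 3.82 (Fndc1) and 3.40 (Pcolce2). Signalling and contractile genes had 4.21 (Ppp1r14a), 3.31 (Rasl12), 2.94 (Lmcd1), 2.85 (Rassf2), 2.56 (Limch1) and 1.69 (Tgfbr1). The others were Gpm6b (6.13), Nr2f1 (4.89), Ch25h (2.34), Nptx2 (2.05), Il6 (1.67), Sv2a (1.47) and Gm2a (1.29).

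In the opposite direction Krt7 had -6.48, Itgbl1 -2.67, Lgals3 -2.30, Col6a2 -1.85 and Col6a1 -1.62. Summed mesothelial markers were far higher in epididymal GFP- than in the other groups, and summed macrophage and leukocyte markers far higher in inguinal GFP-. The part of either in these values was not tested. Single samples far from their group were not looked for, since each group held 3.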

How the results depend on the processing

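The counts of genes set apart moved most with the pseudocount and with the threshold. With a pseudocount of 1 the rule took 103 higher and 55 lower genes, and with 64 it took 37 and 13, of which 13 of the lower passed; the pseudocount by construction changes differences of dim genes. A threshold of 1.5 left 16 and 5 genes, all of which passed, with 6 running opposite ways in the depots. A threshold of 1.5-fold gave 223 and 88, of which 154 and 75 passed and 53 ran opposite ways. Requiring 1.5-fold beside the adjusted p left 887 higher and 790 lower genes against epididymal GFP-, 1529 and 664 against inguinal GFP+, and 1215 and 692 against inguinal GFP-. With each array left out in turn, the counts of genes called by adjusted p alone lay between 2418 and 2724 and between 2310 and 2589 against epididymal GFP-, between 3045 and 3374 and between 2602 and 2919 against inguinal GFP+, and between 2573 and 3093 and between 2430 and 2843 against inguinal GFP-. The sets held 54 to 64 and 20 to 26 genes, of which 50 to 57 and 20 to 25 passed, and 20 to 23 ran opposite ways. With the replicate number as a block, 2633 and 2521 genes were called against epididymal GFP-, 3356 and 2889 against inguinal GFP+, and 2963 and 2747 against inguinal GFP-, and the sets stayed at 56 and 22 genes; the block changed no call of a gene set apart. Of the 78 genes, 64 passed under each of the 23 alternative fits that included them, and 13 changed side or direction under at least 1. The 12 weakly detected on average were not in the fit without weak genes, and other thresholds were not among the 23. Least differences of Sry, Cdh5 and Fgf11 turned to -0.33, -0.03 and -0.79 under the median probe set of the gene, another and weakly detected measurement. Quantile normalization kept 69 of the 78 genes in the sets, median centring 73, and averaging all probe sets 67; the share of higher among called genes moved by less than 10 percentage points under both scalings, but lower calls became the more numerous in all 3 comparisons after median centring and in both inguinal ones after quantile normalization. The count of genes running opposite ways could not be fitted with only the groups compared. Signal over background limits the dim genes: 12 of the 78 were weakly detected on average.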

Other observations

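Genes of other lists differed between epididymal GFP+ cells and all 3 other groups without reaching the rule's threshold. Among adipogenic regulators, Cebpa, a factor of fat cell differentiation, averaged 674 in epididymal GFP+ against 311 in epididymal GFP-, 443 in inguinal GFP+ and 477 in inguinal GFP- (adjusted p = 0.0137), and Ebf2, a factor of fat progenitors, 1174 in epididymal GFP+ against 18.4 in epididymal GFP-, 748 in inguinal GFP+ and 818 in inguinal GFP- (0.00259). With Zfp423 they were the 3 of 26 that passed upward, and none passed downward (4.54% and 4.28% of all genes). Among 26 adipocyte lipid genes 6 passed upward and 3 downward (4.54% and 4.28% of all genes), the lower ones being the lipase gene Mgll (-2.05, -0.71 and -1.47 in the order epididymal GFP-, inguinal GFP+, inguinal GFP-), the lipid droplet gene Plin2 (-0.41, -0.98 and -1.02) and Fasn (-0.16, -0.30 and -0.27). Fabp5 (1.19, 0.79 and 0.40) and Mrap were among the higher ones. Pgf, the gene of placental growth factor, averaged 977 in epididymal GFP+ against 207 in epididymal GFP-, 254 in inguinal GFP+ and 499.9 in inguinal GFP-, and missed the rule only against inguinal GFP-.

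Glutathione and redox genes were found in both directions: Gstm1 (0.62, 0.82 and 0.67), Gstm2, Gstt1 (1.18, 0.72 and 0.77), Gstt2 and Gpx7 were higher than in all 3 groups, while Gss (-0.52, -0.53 and -0.59), Ggct and Aox1 (-1.09, -0.62 and -0.78) and the haem oxygenase gene Hmox1 (-1.16, -0.90 and -0.93) were lower, 5 and 4 of 39 (4.54% and 4.28% of all genes). Of 38 interferon response and antigen presentation genes, 23 were lower than in inguinal GFP+ and 3 higher (23.6% and 27.2% of all genes), and 16 lower than in inguinal GFP- and 3 higher (22.5% and 24.4%). Against epididymal GFP- 13 were higher and 4 lower (21.5% and 20.3%). Only Gbp2 (0.50, 0.85 and 0.74) and Oasl2 (-0.61, -1.08 and -0.60) passed against all 3, shares below those of all genes. Of 34 genes of the mitochondrial respiratory chain 1 was higher than all 3 groups and none lower, shares below the 4.54% and 4.28% of all genes. Meg3, an imprinted non-coding RNA gene, was lower throughout, with means of 6514 in epididymal GFP+ against 12087 in epididymal GFP-, 11656 in inguinal GFP+ and 13278 in inguinal GFP-.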
